A study of Mus musculus with 24 samples.

Results

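CD8 T cells that had been kept beside shFto-1 tumour cells were set against CD8 T cells kept beside shNC tumour cells, over all genes of the T cell count table. The libraries were chosen by their labels: 2 libraries beside shFto-1 cells and 2 beside shNC cells, which are 4 of the 24 mouse samples of the series. The T cells were purified naive OT-I cells from C57BL/6 mice, whose transgenic receptor recognises an ovalbumin peptide, and carried no hairpin themselves. They spent 8 h in medium with IL-2 beside B16-OVA cells, a C57BL/6 melanoma line that carries ovalbumin, and were then sorted by flow cytometry. The tumour cells expressed a hairpin against Fto (shFto-1) or a control hairpin (shNC) and were grown under puromycin. A further 2 T cell libraries, beside a tumour line with another hairpin against Fto (shFto-2), entered the fit to estimate the spread. The labels do not say whether replicate libraries came from separate co-cultures or mice, so each p-value speaks only of variation among libraries, part of which could be technical.

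FTO erases N6-methyladenosine (m6A), a mark on messenger RNA, and the title of the series places it upstream of glycolysis in tumours and of escape from T cells. A naive CD8 T cell that meets its antigen first switches on immediate early transcription factors and MYC, then enlarges its nucleolus, its ribosomes and its nutrient uptake, and in the following hours starts to make interferon gamma, granzymes and perforin. Over the same period it shuts down the genes that keep a naive cell in lymph nodes and responsive to IL-7. The question that the comparison answers is how the state of the T cells differed after contact with tumour cells that differed in Fto.

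Total counts were 13066355 and 5166653 in the shFto-1 libraries and 2628158 and 6567685 in the shNC libraries. The first shNC library was therefore the shallowest and the first shFto-1 library the deepest. Across genes, log2 levels correlated with r = 0.932 between the shFto-1 libraries and r = 0.921 between the shNC libraries, and with r between 0.864 and 0.930 across the groups. The first shFto-1 library stood apart from the second in small structured RNAs: Rpph1, the RNA part of RNase P, had 10908 and 2134 CPM (counts scaled by the TMM-adjusted library size) in the shFto-1 libraries, against 1715 and 2172 CPM in the shNC libraries. It also correlated more closely with the first shFto-2 library (r = 0.971) than with its own replicate.

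The T cell identity of the sort was visible in all 4 libraries. The 8 identity genes in the table, which include Cd8a, Cd3e and Thy1, summed to 2151 and 2068 CPM beside shFto-1 cells and to 2465 and 2239 CPM beside shNC cells. Thy1 was called higher and Cd2, Cd8a and Cd8b1 lower beside shFto-1 cells, all by at most 0.43 on the log2 scale, and none of these 4 calls held without the first shFto-1 library. The Thy1 call was also lost with library totals and without the second shNC library (adjusted p up to 0.147). The libraries also held melanoma RNA. The 20 melanoma markers summed to 2278 and 2075 CPM beside shFto-1 cells and to 1590 and 1981 CPM beside shNC cells. Set against their level in the tumour RNA libraries of the series, these sums equal 8.92% and 8.13% of tumour RNA in the shFto-1 libraries, and 7.92% and 9.87% in the shNC libraries. The tumour and T cell tables were scaled separately, so these shares are estimates. Single markers departed from them in both directions. Rab27a had 199 and 190 CPM beside shFto-1 cells, against a mean of 188 CPM in the shFto tumour libraries. Slc24a5 had 10.7 and 6.91 CPM beside shFto-1 cells, against 426 CPM in those tumour libraries. The shares, and the subtraction built on them, thus rest on a sum over markers that disagree. Myeloid markers summed to 107 and 107 CPM beside shFto-1 cells, against 59.6 and 48.0 CPM beside shNC cells, with Fcgr3, Xcr1 and Clec9a at 0 in all 4 libraries; Nos2, Cebpb, Cebpd and Cd74 rose, 4 of the 10 tested. B and NK cell markers summed to 5.92 and 8.09 CPM against 10.7 and 6.29 CPM, with Cd79a, Klra4 and Klra8 at 0. Markers of CD4 and regulatory T cells summed to 29.1 and 23.9 CPM beside shFto-1 cells and to 23.9 and 38.0 CPM beside shNC cells, with Foxp3 at 0. Those of fibroblasts, endothelium and epithelium summed to 97.8 and 101.7 CPM beside shFto-1 cells, against 171 and 135 CPM beside shNC cells. Most of this was 1 gene, Pecam1, with 70.3 and 70.5 CPM beside shFto-1 cells, against 144 and 111 CPM beside shNC cells. Which cells expressed Pecam1, T cells or others, was not tested. Col12a1 went the other way, with 23.7 and 21.5 CPM beside shFto-1 cells, against 0 CPM beside shNC cells, and Col1a2 and Col6a1 were at 0. Erythroid and platelet markers stayed under 8 CPM in each library. The part of these cells in the results below was not tested, except for tumour RNA, which was subtracted as an alternative.

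Fto itself did not mark the groups of T cells. It had 42.5 and 38.7 CPM beside shFto-1 cells, against 36.1 and 47.1 CPM beside shNC cells, with a log2 difference of -0.06 ± 0.15 (SE; adjusted p = 0.843). The T cells were not the cells with the hairpin, so this level does not check the labels. In the tumour RNA libraries Fto averaged 31.2 ± 2.65 CPM in shFto cells and 102.5 ± 9.32 CPM in shNC cells (SD, n = 3 each), and the labels there do not say which hairpin the shFto cells carried.

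Of 24421 genes in the table, 12824 passed the expression filter and were tested with edgeR's quasi-likelihood test. Of these, 2853 (22.2%) differed between T cells beside shFto-1 and T cells beside shNC cells at an adjusted p under 0.05. Beside shFto-1 cells 1976 (15.4%) were higher and 877 (6.84%) lower. The changes were mostly small: 490 genes (3.82%) differed at least 2-fold, 375 (2.92%) higher and 115 (0.897%) lower. The split between directions depended on the scaling. Of the called genes 69.3% were higher beside shFto-1 cells with TMM, 59.7% with relative log expression size factors, and 45.7% (1293 higher and 1536 lower) with library totals. The median log2 difference over all tested genes was 0.02 with TMM and -0.15 with library totals, and every change is reported relative to the TMM scale. Without the first shFto-1 library 1472 genes passed, 1092 higher and 380 lower.

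**Figure D1:**
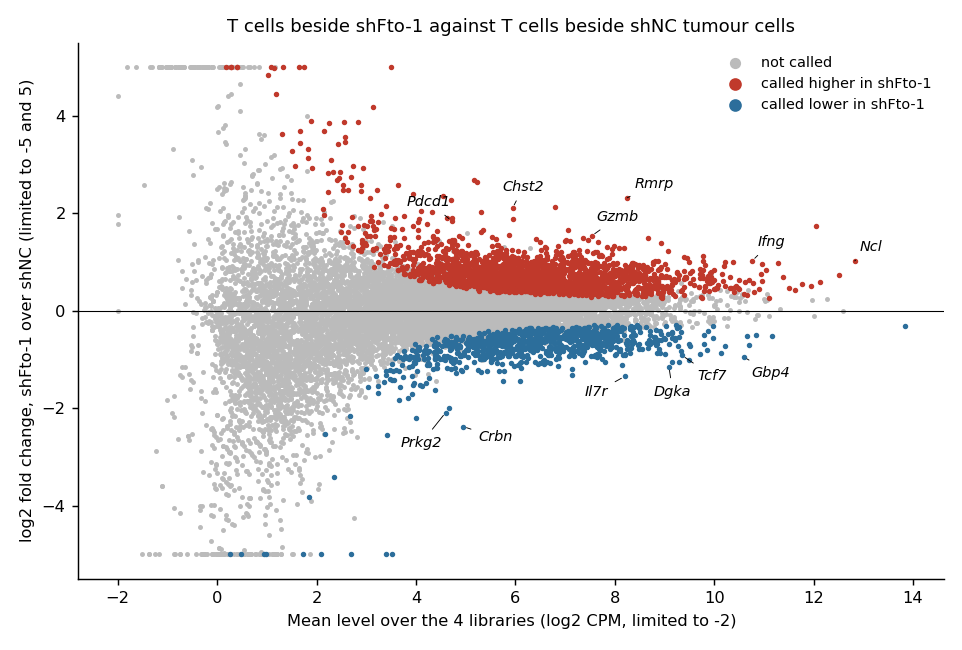
Each point is a gene; the x axis gives its mean over the 4 libraries (log2 CPM) and the y axis the log2 fold change of T cells beside shFto-1 over those beside shNC cells. The 1976 genes called higher (red) include Ncl, Ifng, Gzmb and Chst2, and the 877 called lower (blue) include Il7r, Tcf7 and Gbp4.

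The broadest difference lay in the machinery that builds ribosomes. Myc, the transcription factor that drives growth after antigen contact, had 1140 and 1170 CPM beside shFto-1 cells, against 844 and 716 CPM beside shNC cells. The groups did not overlap and Myc was 1.48-fold higher beside shFto-1 cells (log2 difference 0.57 ± 0.10 SE, adjusted p = 0.00297). Of the 9 tested genes of the MYC network, Myc and Mlx, a partner in a parallel network, rose, while Mxd4 and Mxi1, which oppose MYC at its sites, fell by 1.24 and by 0.57 on the log2 scale. That is 22.2% in each direction, where 15.4% of all tested genes rose and 6.84% fell. The calls of Mlx, Mxd4 and Mxi1 were each lost without the first shFto-1 library and without 1 or both of the shNC libraries (adjusted p up to 0.211, 0.0931 and 0.17).

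All 25 genes of a list of MYC targets and nucleolar factors rose beside shFto-1 cells, where 15.4% of all tested genes did. Their median log2 difference was 0.98, with a range of 0.80 to 1.27, against 0.02 over all tested genes, and 25 were called in each fit that left out 1 library and with each scaling tried. The summed level of the list was 22436 and 23485 CPM beside shFto-1 cells, against 11547 and 11529 CPM beside shNC cells. Ncl, which encodes nucleolin, the major protein of the dense nucleolus, had 9550 and 9918 CPM beside shFto-1 cells, against 4730 and 4852 CPM beside shNC cells. That is a log2 difference of 1.02 ± 0.07 (adjusted p = 0.000107). Npm1, a nucleolar chaperone, had 3152 and 3434 CPM beside shFto-1 cells, against 1705 and 1638 CPM beside shNC cells. The largest log2 difference of the list was 1.27, for Rrp9, and Utp20, both of which serve the small subunit processome, had 1.16 ± 0.10. Every one of these libraries beside shFto-1 cells lay above both libraries beside shNC cells.

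MYC is known to bind the E-box CACGTG. RefSeq promoter windows run from 250 bases before to 50 after the start, and only the 250 bases before it were searched. Of the 20 genes of this list with a window, 1 held CACGTG there, against 988 of the 10192 tested genes with a window (9.69%). A gene was counted if any of its windows held the motif. Counted by window and not by gene, 1978 of 32851 (6.02%) held it. That gene was Nop2, a ribosomal RNA methyltransferase, with 257 and 269 CPM beside shFto-1 cells, against 166 and 137 CPM beside shNC cells. The stretch around the match is shown because Nop2 was the single gene of the list with CACGTG in the searched bases. It lies at chr6:125131786-125131865 on the plus strand of GRCm38.p6, with the motif in capitals 60 to 55 bases before the start.
Nop2: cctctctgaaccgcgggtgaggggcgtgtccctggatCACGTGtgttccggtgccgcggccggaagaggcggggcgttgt
A match of letters is a description and not a bound site.

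Genes that supply and run protein synthesis rose with the nucleolar list. For the counts below, 15.4% of all tested genes rose. Of 21 tested aminoacyl-tRNA synthetases, which load transfer RNAs, 16 rose and 0 fell (median log2 difference 0.56), and 11 rose without the first shFto-1 library. Kars, the lysyl enzyme, had 323 and 319 CPM beside shFto-1 cells and 197 and 192 CPM beside shNC cells, and Hars, the histidyl enzyme, was 1.77-fold higher. Of 26 cytosolic ribosomal protein genes 12 rose, but this count was 2 without the first shFto-1 library and 4 without the second shNC library. Rplp1, a stalk protein, had 3187 and 2234 CPM beside shFto-1 cells, against 1648 and 1397 CPM beside shNC cells, a log2 difference of 0.83 that became 0.55 without the first shFto-1 library. Of 25 proteasome subunits, which form the protease for tagged proteins, 24 rose (median 0.66), and 13 without the first shFto-1 library. Psmd1, a scaffold of the regulatory particle, had 373 and 384 CPM beside shFto-1 cells, against 212 and 222 CPM beside shNC cells.

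Uptake and use of amino acids followed the same direction. In this list 15 of 20 tested genes rose (75.0%) and 0 fell, where 15.4% of all tested genes rose. The list's median log2 difference was 0.65. Slc7a5, the light chain of the large neutral amino acid transporter on which activated T cells rely, had 220 and 210 CPM beside shFto-1 cells, against 101 and 113 CPM beside shNC cells. Shmt2, the mitochondrial serine hydroxymethyltransferase that feeds folate metabolism, had 338 and 316 CPM beside shFto-1 cells, against 134 and 130 CPM beside shNC cells (log2 difference 1.31 ± 0.09, adjusted p = 0.000169). Shmt1, its cytosolic counterpart, and Srm, which makes spermidine, differed by 1.44 and 1.43. Slc7a11, the cystine transporter, was higher by 2.48 at low counts: 146 and 51 reads beside shFto-1 cells, against 0 and 21 reads beside shNC cells. Its call was lost without the first shFto-1 library (adjusted p = 0.0613) and with DESeq2, and the melanoma cells expressed it too, at 22.7 CPM in shNC tumour libraries.

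The products with which CD8 T cells act on targets were higher beside shFto-1 cells. Over all tested genes 15.4% rose and 6.84% fell. Of 19 tested effector genes, 12 rose and 0 fell, with a median log2 difference of 0.99, and 12 rose in each fit without 1 library. With library totals 3 fell, with relative log expression or DESeq2 2 fell, and without the second shNC library 1 fell. Ifng, which encodes interferon gamma, had 2422 and 2245 CPM beside shFto-1 cells, against 1179 and 1117 CPM beside shNC cells. Gzmb, the protease that triggers death of the target cell (chr14:56258836-56262334, GRCm38.p6), had 283 and 270 CPM beside shFto-1 cells, against 91.8 and 98.1 CPM beside shNC cells. It was 2.90-fold higher (log2 difference 1.54 ± 0.10, adjusted p = 0.000107). Prf1, the pore protein through which granzymes enter, had 44.2 and 41.9 CPM beside shFto-1 cells, against 13.9 and 21.0 CPM beside shNC cells, a log2 difference of 1.23. Serpinb9 and Serpinb6b, inhibitors of the serpin family of which the first protects killer cells from their own granzyme B, were higher by 1.48 and 1.41. None of these genes reached 4 CPM in the tumour RNA libraries.

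The Gzmb promoter is shown because Gzmb had the smallest adjusted p of the effector list; it was chosen after its values were seen. It holds TGANTCA, the AP-1 site through which FOS and JUN proteins bind, in capitals 58 to 52 bases before the start, at chr14:56262350-56262429 on the minus strand of GRCm38.p6. Of all windows 2217 (6.75%) hold TGANTCA, on either strand.
Gzmb: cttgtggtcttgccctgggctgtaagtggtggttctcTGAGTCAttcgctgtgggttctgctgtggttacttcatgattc
The motif overlaps no CACGTG match, and its letters say nothing of binding in these cells.

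Secreted factors shared this direction with exceptions. Il2, the T cell growth factor, had 96.7 and 86.5 CPM beside shFto-1 cells, against 47.5 and 49.5 CPM beside shNC cells. Il3, a growth factor for blood cells, differed by 1.46 on the log2 scale. The chemokine Ccl3 had 1649 and 1536 CPM beside shFto-1 cells, against 840 and 749 CPM beside shNC cells, and Xcl1, which attracts cross-presenting dendritic cells, had 749 and 452 CPM against 181 and 241 CPM. Ccl4 was higher by 0.99, and its annotated span overlaps that of Ccl3, so reads of that stretch may be shared where counting ignored strand. In the whole list of 17 tested chemokines and chemokine receptors 5 rose (29.4%, where 15.4% of all tested genes did) and 0 fell. The list's median of 0.45 became -0.10 without the first shFto-1 library. Tnf did not pass the test, with 153 and 156 CPM beside shFto-1 cells and 207 and 163 CPM beside shNC cells. Gzma, Ccl5 and Fasl did not pass either.

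**Figure D2:**
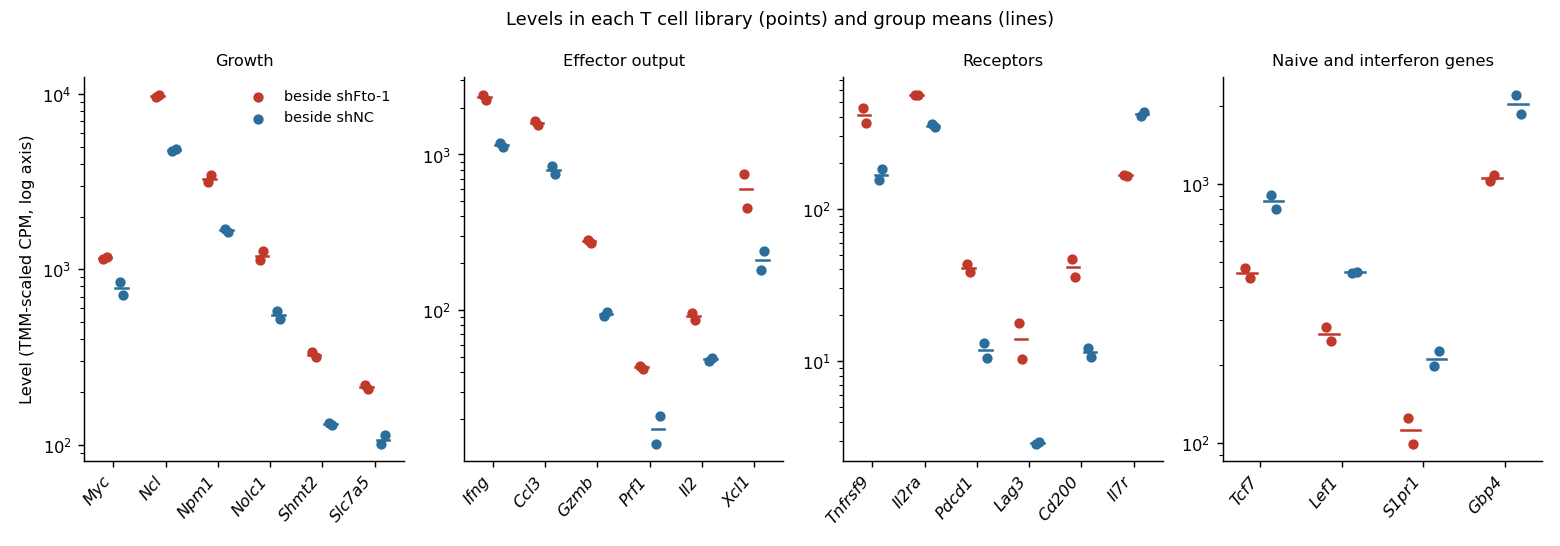
Level of 22 genes in each library (points; TMM-scaled CPM, log axis) with group means (lines), T cells beside shFto-1 in red and beside shNC in blue. Growth and effector genes such as Ncl, Ifng and Gzmb lie higher beside shFto-1 cells, Il7r, Tcf7 and Gbp4 lie lower, and no gene shown has overlapping groups.

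Receptors of activated cells moved upward. Of 15 tested activation and costimulatory receptors and ligands, 9 rose (60.0%) and 0 fell (median 0.51), where 15.4% of all tested genes rose. Tnfrsf9 (4-1BB), a costimulatory receptor induced by antigen, had 459 and 366 CPM beside shFto-1 cells, against 154 and 182 CPM beside shNC cells, 2.45-fold higher. Il2ra, the high affinity chain of the IL-2 receptor, had 561 and 563 CPM against 361 and 342 CPM. Cd69, an early activation marker, had 1134 and 983 CPM beside shFto-1 cells and 1012 and 972 CPM beside shNC cells and did not pass the test.

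Of 12 tested inhibitory receptors, which activated T cells also induce, 5 rose (41.7%) and 0 fell, where 15.4% of all tested genes rose. Pdcd1 (PD-1; chr1:94038305-94052553) had 43.2 and 38.5 CPM beside shFto-1 cells, against 13.2 and 10.5 CPM beside shNC cells, a log2 difference of 1.84 ± 0.17 (adjusted p = 0.00029). Cd200, an inhibitory ligand, had 46.9 and 35.5 CPM against 12.1 and 10.6 CPM. Lag3 had 219 and 52 reads beside shFto-1 cells, against 8 and 21 reads beside shNC cells. Those reads are not scaled for depth, and the first shFto-1 library was the deepest and the first shNC library the shallowest. Cd160 and Btla were higher by 1.07 and 0.67. Ctla4, with a log2 difference of 0.20, and Havcr2 (TIM-3), with -0.40 at under 6 CPM in every library, did not pass. The tumour RNA libraries held no reads of Pdcd1 or Cd200.

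Of 13 tested transcription factors of effector and exhausted cells, 7 rose and 1 fell, and 4 rose without the first shFto-1 library. Over all tested genes 15.4% rose and 6.84% fell. Irf8 had 606 and 599 CPM beside shFto-1 cells, against 303 and 295 CPM beside shNC cells. Bhlhe40, which supports cytokine output, and Hif1a, the oxygen-sensing factor that T cells also stabilise on activation, were higher by 0.72 and 0.63. Ikzf2 (Helios) had 68.0 and 57.5 CPM beside shFto-1 cells, against 123 and 137 CPM beside shNC cells. Tbx21, Eomes and Prdm1 did not pass the test, and Prdm1 rested on at most 57 reads in a library.

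Genes of the pathway downstream of the receptor moved in both directions. Of 23 tested proximal signalling genes 6 rose (26.1%) and 3 fell (13.0%), where 15.4% of all tested genes rose and 6.84% fell. With library totals 5 rose and 7 fell, and with DESeq2 6 rose and 6 fell. The kinases Fyn and Zap70 and the receptors Cd5 and Cd6, which tune receptor signals, rose by 0.54 to 0.70, although Zap70 was not called without the first shFto-1 or the second shNC library. Dgka, a kinase that removes diacylglycerol and restrains the pathway, had 339 and 338 CPM beside shFto-1 cells, against 774 and 728 CPM beside shNC cells, a log2 difference of -1.15. Among 26 tested early response factors 8 rose and 2 fell, with a median of 0.15 that was -0.02 with library totals, and 4 rose without either shFto-1 library. Spry1, a feedback inhibitor of the RAS pathway, had 226 and 210 CPM beside shFto-1 cells, against 95.3 and 90.2 CPM beside shNC cells, and Irf4, which scales with receptor signal, had 1211 and 1143 CPM against 782 and 780 CPM. Egr1 and Egr3, immediate early factors, fell by 0.71 and 0.89, and Egr1 was not called without the second shFto-1 or the first shNC library (adjusted p up to 0.109). Nr4a1, often used as a gauge of receptor signal, had 1317 and 1240 CPM beside shFto-1 cells and 1345 and 1171 CPM beside shNC cells, and those groups overlapped.

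Genes of naive and memory cells made up the clearest group that was lower beside shFto-1 cells. Of 22 tested, 0 rose and 10 fell, where 6.84% of all tested genes fell, and the median log2 difference was -0.64. Il7r, the receptor for the survival cytokine IL-7 (chr15:9506159-9529941), had 166 and 165 CPM beside shFto-1 cells, against 409 and 434 CPM beside shNC cells, a log2 difference of -1.35 ± 0.19 (adjusted p = 0.00115). Tcf7, which encodes TCF-1, had 474 and 432 CPM beside shFto-1 cells, against 908 and 803 CPM beside shNC cells. Lef1, its relative, fell by 0.78, and S1pr1, which guides exit from lymph nodes, by 0.91. S1pr1 was not called without the second library of either group (adjusted p up to 0.0552). Ccr7, Foxo1 and Klf2 did not pass. In these bulk libraries fewer cells that express a gene and less of its RNA per cell cannot be told apart, and the same holds for every rise above.

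RNA of cytokine receptors and their signalling genes was lower more often than higher, where 15.4% of all tested genes rose and 6.84% fell. Of 25 tested cytokine receptors and signalling genes 4 rose and 12 fell, with 5 falling without the first shFto-1 library, 6 without the second and 7 without the first shNC library. The interferon receptor chains Ifnar1, Ifnar2, Ifngr1 and Ifngr2 fell by 0.49 to 0.79 on the log2 scale, and the kinase Jak1 by 0.68. Ifnar1 and Jak1 were called in each fit without 1 library, whereas the other receptor chains were lost in 3 or 4 of these 4 fits. Against this, Il2rb, Stat5a, Il12rb1 and Cish, the last a target of IL-2 signals, rose by 0.36 to 0.74, of which Cish alone was called in each fit without 1 library.

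Among 34 interferon-stimulated genes 2 rose and 12 fell, and without the second shFto-1 library 6 fell. With library totals 0 rose and 19 fell, and with DESeq2 2 rose and 18 fell. Those that fell were mainly guanylate-binding proteins and immunity-related GTPases, which interferon gamma is known to induce. Over all tested genes 15.4% rose and 6.84% fell. Gbp4 had 1024 and 1084 CPM beside shFto-1 cells, against 2211 and 1862 CPM beside shNC cells, and Gbp9 fell by 1.04. Reads of these neighbouring, similar genes may be split between copies. Usp18 and Bst2 rose, by 0.55 and 0.59, although neither was called in any fit without 1 library. Ifit1, Isg15, Mx1 and Oas2, which type I interferon induces, did not pass. Ifng thus lay higher and 12 of the listed interferon-response genes lower in the same libraries.

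Metabolic lists differed in extent, and over all tested genes 15.4% rose and 6.84% fell. In glycolysis and glucose uptake 8 of 24 tested genes rose and 1 fell (median 0.22), and 4 rose without the second shNC library and 5 without the first shFto-1 library. Hk2, the hexokinase that T cells induce on activation, had 524 and 571 CPM beside shFto-1 cells, against 281 and 322 CPM beside shNC cells, and Pgam1 was 1.69-fold higher. Pdk1, which diverts pyruvate from mitochondria, had 158 and 164 CPM against 250 and 255 CPM and fell by 0.65. Ldha, lactate dehydrogenase, was higher by 0.46 (0.30 with library totals), and the main glucose transporter Slc2a1 had 195 and 200 CPM beside shFto-1 cells and 164 and 179 CPM beside shNC cells and did not pass. In the hypoxia list 4 of 20 rose and 3 fell, with a median of 0.10 that was -0.07 with library totals. Of 32 oxidative phosphorylation genes 14 rose and 0 fell (median 0.40), with 6 without the first shFto-1 library and 9 without either shNC library. Uqcrfs1, the iron-sulfur subunit of complex III, had 168 and 147 CPM beside shFto-1 cells, against 80.4 and 92.0 CPM beside shNC cells.

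Sterol synthesis contributed 7 rises of 18 tested genes, with 4 without the first shFto-1 library and 3 without the second. Idi1, the isopentenyl diphosphate isomerase, had 73.7 and 63.2 CPM beside shFto-1 cells, against 25.0 and 23.6 CPM beside shNC cells, a log2 difference of 1.51. Lss, a later enzyme of the pathway, was called overall but not without the first shFto-1 library (adjusted p = 0.059). Of 20 genes of the ATF4 and unfolded protein response 9 rose (45.0%), including Atf4, Atf3 and the chaperones Canx and Calr. By comparison, 38.9% of the sterol list and 15.4% of all tested genes rose. The targets Ddit3, Trib3, Chac1 and Asns, which ATF4 drives in stress, had log2 differences of -1.18 to -0.20 and did not pass.

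Of 29 tested cell cycle genes, 7 rose (24.1%) and 1 fell (3.45%), where 15.4% of all tested genes rose and 6.84% fell. Cdk4 had 135 and 132 CPM beside shFto-1 cells, against 75.0 and 74.0 CPM beside shNC cells, and the helicase subunits Mcm2, Mcm3 and Mcm5 were higher by 0.64 to 0.68. Mcm5 was not called without the first shFto-1 or the second shNC library. The tumour cells express these genes strongly, and with tumour RNA subtracted the differences were 3.61, 1.30 and 1.74. Mcm2 had 79.3 and 73.1 CPM beside shNC cells, where the melanoma share would carry 65.2 and 81.2 CPM. Subtraction thus left little or no Mcm2 in the shNC libraries, and its value of 3.61 gives no size. The inhibitor Cdkn1b (p27) fell by 0.77. Mki67, a marker of cycling cells, had 141 and 156 CPM beside shFto-1 cells and 140 and 161 CPM beside shNC cells, and its mean in the shNC tumour libraries was 1142 CPM. Of the survival genes, Bcl2l1 (BCL-XL) had 188 and 183 CPM beside shFto-1 cells, against 96.8 and 102 CPM beside shNC cells. Bcl2a1b and Bcl2a1d, near-identical copies between which reads may be split, were higher by 1.30 and 1.20. Bcl2 itself, with -0.33, did not pass.

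**Figure D3:**
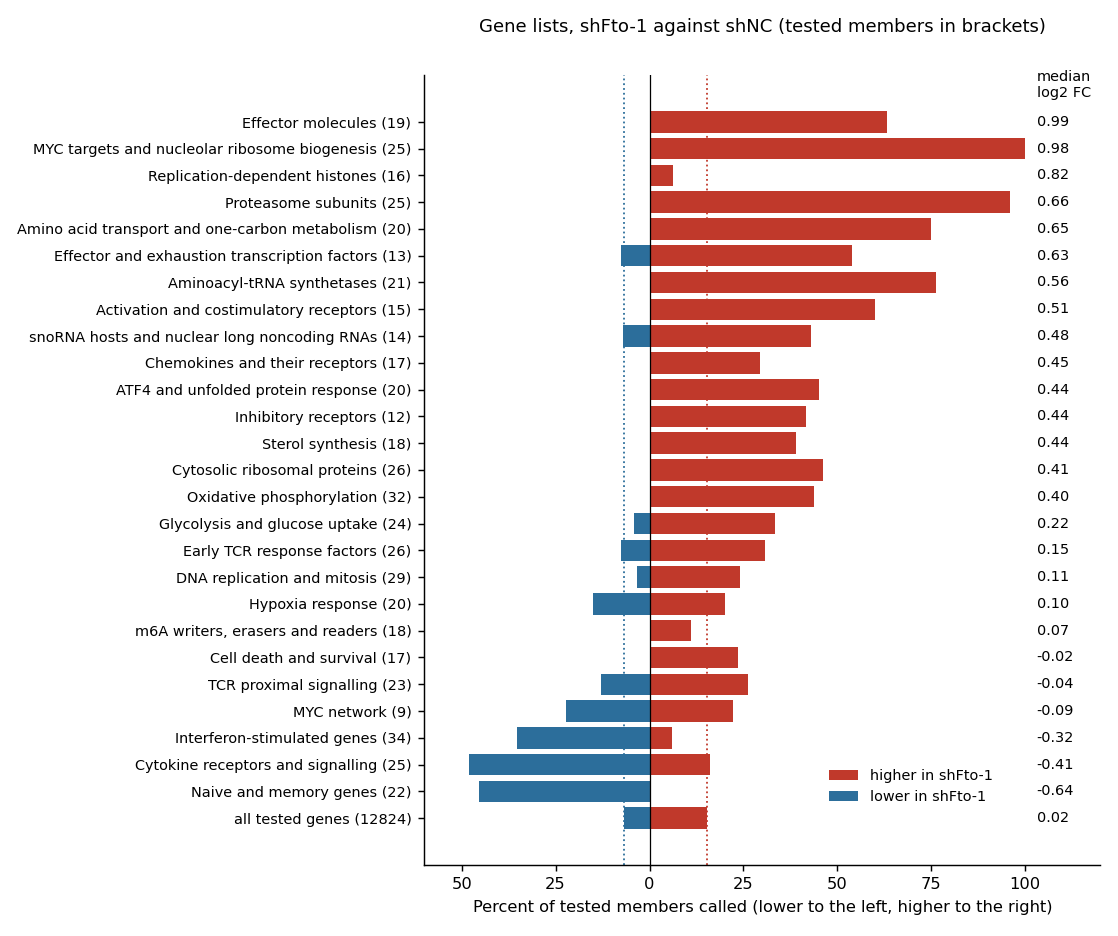
For each gene list, bars give the percent of tested members called higher (red, to the right) or lower (blue, to the left) beside shFto-1 cells, with the number tested in brackets and the median log2 fold change at the right. The dotted lines mark the shares over all tested genes, 15.4% higher and 6.84% lower; the MYC target list reaches 100% higher, and the naive list has no member called higher.

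Of 18 tested writers, erasers and readers of m6A, 2 rose and 0 fell in the T cells. That share of rises, 11.1%, lies near the 15.4% over all tested genes and is no result about the list. Ythdf2, a reader that promotes decay of marked messages, had 209 and 221 CPM beside shFto-1 cells, against 163 and 157 CPM beside shNC cells. Its call was lost with library totals and without the second library of either group (adjusted p up to 0.0769), and that of Ythdf1 without the first shFto-1 or second shNC library and under 6 further settings, library totals and DESeq2 among them. In a list of small nucleolar RNA host genes and nuclear long noncoding RNAs 6 of 14 tested rose and 1 fell, and 4 rose without the first shFto-1 library. Snhg1, a host gene whose introns carry small nucleolar RNAs, had 144 and 137 CPM beside shFto-1 cells, against 63.6 and 79.8 CPM beside shNC cells. Malat1, an abundant nuclear RNA, fell by 0.32 and was not called in 3 of the 4 fits without 1 library.

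Replication-dependent histone genes showed how much the first shFto-1 library could weigh. Their median log2 difference was 0.82, but their summed level was 1872 CPM in the first shFto-1 library and 1132 CPM in the second, against 1239 and 1160 CPM in the shNC libraries. Of 16 tested, 1 was called, Hist1h3e, with 81.6 and 40.7 CPM beside shFto-1 cells and 23.2 and 31.7 CPM beside shNC cells. Without the first shFto-1 library the list's median was -0.09, and without the second 10 genes were called. Hist1h3e was not called without the first shFto-1 library or either shNC library (adjusted p up to 0.199). Histone genes are near-identical copies, and reads may be split among them.

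Among the 12 largest rises at 10 CPM or more, several were tumour genes. Met, a receptor kinase, had 66.0 and 64.0 CPM beside shFto-1 cells, against 8.21 and 11.5 CPM beside shNC cells. It averaged 879 ± 63.0 CPM in shFto tumour cells and 267 ± 13.6 CPM in shNC tumour cells (SD, n = 3 each). At the melanoma share given above, tumour RNA alone would carry 78.4 and 71.4 CPM of Met into the shFto-1 libraries, and 21.2 and 26.4 CPM into the shNC libraries. Of 19 tested melanoma markers 4 rose (21.1%), where 15.4% of all tested genes did, with a list median of 0.12. Pmel, a melanosome protein, was 1 of these, with 190 and 172 CPM beside shFto-1 cells, against 38.9 and 43.3 CPM beside shNC cells. The melanoma share of RNA would carry 335 and 305 CPM of Pmel into the shFto-1 libraries, and 232 and 289 CPM into the shNC libraries. All 4 measured levels lay below these values, so the share is too high for Pmel, most of all in the shNC libraries. The other markers that rose included Tyr, whose call was lost without the first shFto-1 or the second shNC library (adjusted p up to 0.0546), and Tyrp1, while Mlana, Dct and Gpnmb did not pass. Part of the difference in such genes can therefore not be told apart from RNA of the tumour cells.

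Other large rises exceeded, in the shFto-1 libraries, what the melanoma share would carry. Chst2, a sulfotransferase, had 108 and 91.0 CPM beside shFto-1 cells, against 24.3 and 22.6 CPM beside shNC cells, a log2 difference of 2.11 ± 0.14 (adjusted p = 0.000107), with no reads in the tumour libraries. Crabp2, a retinoic acid carrier, had 24.6 and 27.1 CPM against 4.29 and 5.17 CPM, and Rrp8, a nucleolar methyltransferase, 43.2 and 42.2 CPM against 10.7 and 7.83 CPM. Mrps25, a mitochondrial ribosomal protein, had 59.5 and 61.8 CPM beside shFto-1 cells, against 16.4 and 5.87 CPM beside shNC cells. The tumour cells expressed Mrps25 at 131 CPM (shFto) and 150 CPM (shNC). Tumour RNA would carry 11.9 and 14.8 CPM into the shNC libraries, more than the second of them held. Ncs1, a neuronal calcium sensor, was higher by 2.59 overall and by 1.66 without the second shNC library. Col12a1, a collagen, had 293 and 109 reads beside shFto-1 cells and 0 reads in both shNC libraries. Taking 3 reads over the group as the floor, it was at least 76.6-fold higher. Rmrp and Scarna10, small structured RNAs, followed the first shFto-1 library: Rmrp had 884 and 130 CPM beside shFto-1 cells, against 98.2 and 107 CPM beside shNC cells, and its log2 difference of 2.32 became 0.33 without that library. Neither was called without that library or without either shNC library.

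**Figure D4:**
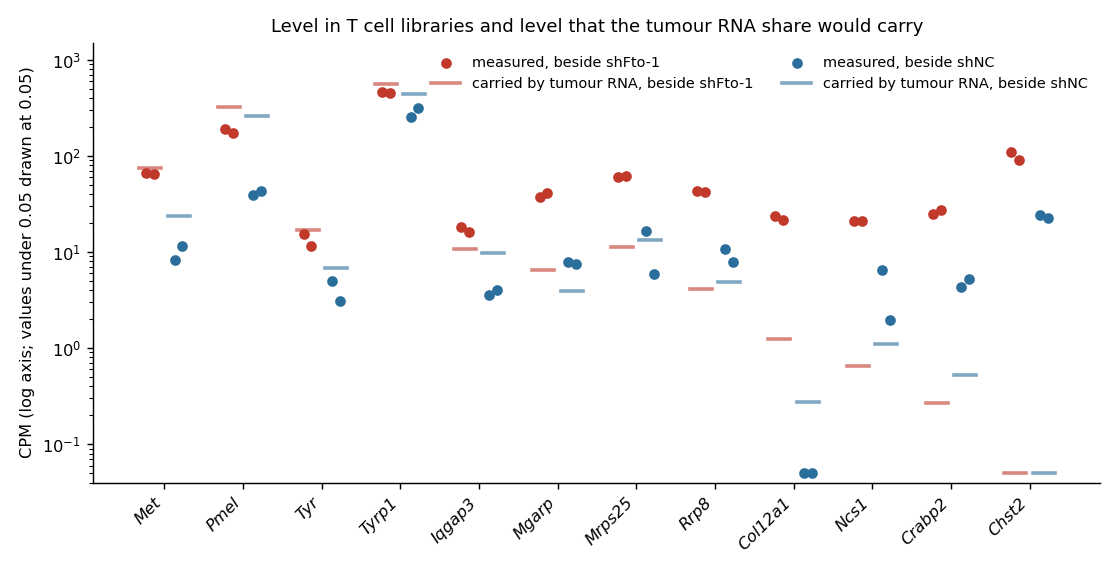
Points give the CPM (log axis) in each T cell library, beside shFto-1 (red) and beside shNC cells (blue); bars give the mean CPM that tumour RNA would carry at the melanoma marker share of each library. Met, Pmel, Tyr and Tyrp1 lie at or below the bars beside shFto-1 cells, whereas Chst2, Crabp2 and Ncs1 lie well above them.

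The 12 largest falls included genes with no reads beside shFto-1 cells. Pibf1 had 0 reads in both shFto-1 libraries, against 59 and 152 reads in the shNC libraries, and was at least 123-fold lower against a floor of 3 reads over the group. Dnah17, a dynein heavy chain, had 0 reads in both shFto-1 libraries and 84 and 112 reads in the shNC libraries, at least 114-fold lower. Both were also at 0 in both shFto-2 libraries. How reads were assigned to genes is not given in the sources used here and reads were not examined, so such bounds, and that of Col12a1, hold for the deposited counts and not necessarily for the RNA. The tumour cells expressed Pibf1 at 15.5 CPM (shFto) and 13.7 CPM (shNC), so tumour RNA would carry 1.39 CPM into the first shFto-1 library, which held none. Crbn, a substrate receptor of a ubiquitin ligase, had 15.2 and 2.96 CPM beside shFto-1 cells, against 55.0 and 50.3 CPM beside shNC cells, a log2 difference of -2.38 that was -4.14 without the first shFto-1 library, and Surf1, an assembly factor of cytochrome oxidase, 5.02 and 0.790 CPM against 20.4 and 16.4 CPM. Surf1 was not called without either shNC library (adjusted p up to 0.12), and DESeq2 called none of Dnah17, Crbn and Surf1 (adjusted p of 0.116, 0.0731 and 0.0954). Sla2, an adaptor that lowers receptor signals, had 7.45 and 13.0 CPM beside shFto-1 cells, against 49.6 and 30.9 CPM beside shNC cells. Clvs1 and Limch1 fell by 2.21 and 1.79, and both are expressed in the tumour cells, Clvs1 at 41.4 CPM in shFto and 114 CPM in shNC tumour libraries. The Limch1 call was lost with tumour RNA subtracted.

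With genes under 1 CPM in every tumour group set apart, 238 of 2306 tested genes (10.3%) differed, 104 (4.51%) higher and 134 (5.81%) lower beside shFto-1 cells. Gzmb, Ifng, Pdcd1, Il7r, Lef1 and Gbp4 belong to this set.

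T cells beside the shFto-1 line were also compared directly with those beside the shFto-2 line. Of 12824 genes 245 (1.91%) differed, 182 (1.42%) higher and 63 (0.491%) lower beside shFto-1 cells. These genes were chosen by that difference in the same data, and no share over all tested genes stands beside the order of their means. In 228 of them (93.1%) the shFto-1 mean lay between the shFto-2 and the shNC mean, which by itself shows no graded order of the lines. The other 17 included Csf2, a cytokine, with 49.9 and 47.6 CPM beside shFto-1 cells and 24.7 and 27.7 CPM beside shFto-2 cells, against 49.3 and 41.9 CPM beside shNC cells, and the interferon-induced Rsad2, with 71.1 and 56.7 CPM beside shFto-1 cells and 156 and 163 CPM beside shFto-2 cells, against 65.7 and 83.3 CPM beside shNC cells. Gzmb had 283 and 270 CPM beside shFto-1 cells and 542 and 510 CPM beside shFto-2 cells, against 91.8 and 98.1 CPM beside shNC cells. Pdcd1 had 43.2 and 38.5 CPM beside shFto-1 cells and 76.3 and 86.4 CPM beside shFto-2 cells, against 13.2 and 10.5 CPM beside shNC cells. Il7r had 166 and 165 CPM beside shFto-1 cells and 104 and 60.9 CPM beside shFto-2 cells, against 409 and 434 CPM beside shNC cells. T cells beside shFto-1 thus had less Gzmb and Pdcd1, and more Il7r, than T cells beside shFto-2. This comparison rested on few libraries: without the first shFto-1 library edgeR called 0 genes (1306 at an unadjusted p under 0.05, smallest adjusted p 0.0885), and without the second shFto-2 library 7, while DESeq2 on all libraries called 1061. Prf1 had 44.2 and 41.9 CPM beside shFto-1 cells and 90.5 and 88.2 CPM beside shFto-2 cells.

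**Figure D5:**
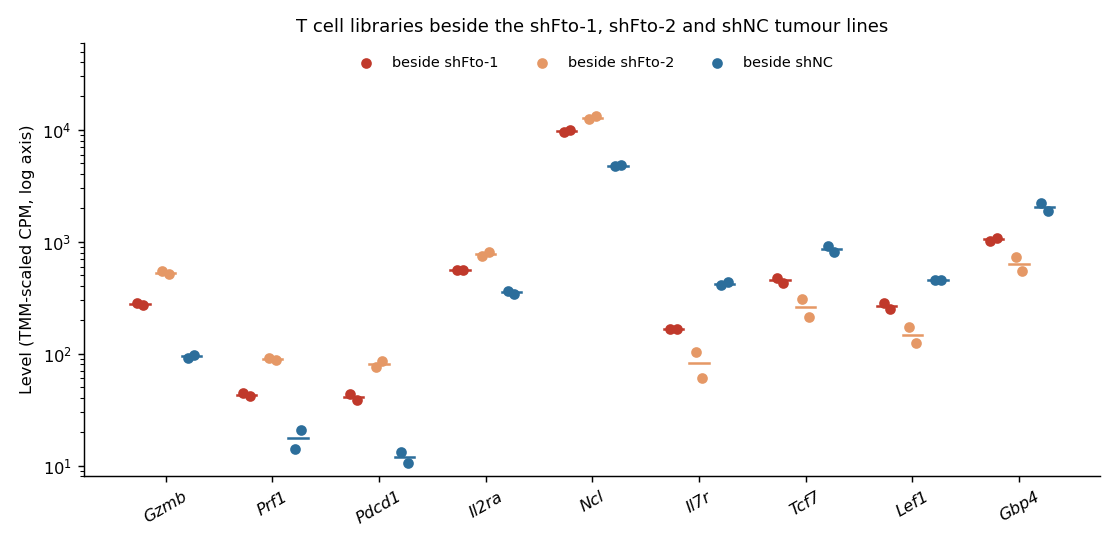
Level of 9 genes (TMM-scaled CPM, log axis) in each T cell library beside shFto-1 (red), shFto-2 (orange) and shNC cells (blue), with group means as lines. The shFto-1 libraries lie between those of the other lines for each gene shown: above shNC for Gzmb, Prf1, Pdcd1, Il2ra and Ncl, and below shNC for Il7r, Tcf7, Lef1 and Gbp4. All 9 were picked from genes that differ between shFto-1 and shFto-2, so they do not show how common this order is.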

How the data were processed

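The deposited T cell table gives raw counts, with a row for each gene symbol and a column for each library, per the file headers, and the tumour RNA table has the same form. Libraries were made with the SMARTer stranded total RNA kit, as the labels' protocols say. Per the submitters' processing notes, the tools included STAR 2.7.0f, Bowtie2 2.3.5 and Trim Galore 0.6.0, with build mm10. The counting tool, its strand setting and the annotation are not given in the sources used here.

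Counts were fitted with edgeR 4.0.16 (R 4.3.3; limma 3.58.1) over the 6 T cell libraries: TMM scaling, default expression filter, quasi-likelihood F test with 3 residual degrees of freedom per gene, Benjamini-Hochberg adjustment over 12824 genes and a threshold of 0.05. Tested genes hold at least 99.5% of counts in each library. Fold changes are shFto-1 over shNC, on the log2 scale, with standard errors. The common biological coefficient of variation was 0.199. In simulated counts drawn independently for each gene with this depth and spread, 48% of genes changed 2-fold and 73% of genes changed 4-fold were recovered. There 3.97% of calls were false. Only 200 of 12824 genes were changed, whereas 22.2% of genes were called in the data. The draws also held no deviation shared by a whole library, so these values give no error rate for the real calls.

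Tumour RNA in a T cell library was estimated as the summed CPM of the melanoma markers over their sum in the shNC tumour libraries for shNC, and in the shFto tumour libraries, whose hairpin the labels do not name, for both shFto lines. Gene lists are described by counts and medians, with no set test. Named genes were Fto and Myc, the members of every list with the lowest adjusted p (up to 3), and the 12 largest rises and 12 largest falls with at least 10 CPM and no overlap between groups, predicted symbols left out. Some list members enter the counts but are not reported here by name. Further list members were picked with their values in view. The lists and the comparison were chosen with earlier results of these data known. Positions and promoters come from RefSeq tables of GRCm38.p6, which placed 112 of 115 named genes. Alternatives were DESeq2 1.42.0, other scalings and filters, a replicate block, leaving out each library, and subtracting tumour RNA. Tables and figures used Python 3.11.15, pandas 2.3.3 and Matplotlib 3.10.9.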

Additional observations from a re-analysis of the deposited data

Results flagged for a closer look

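The results listed here are named genes that differed between T cells beside shFto-1 and T cells beside shFto-2 in a test of that difference (edgeR, adjusted p under 0.05). All values are log2 differences of shFto-1 minus shFto-2. Of all 12824 tested genes 1.91% were called, 1.42% higher and 0.491% lower beside shFto-1. None of the calls held without the first shFto-1 library, where edgeR called 0 genes (1306 at an unadjusted p under 0.05). No cause was tested.

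Among growth genes, 3 of 25 in the MYC target list were called, all lower beside shFto-1 than beside shFto-2 cells. In the proteasome list 1 of 25 was called, also lower, which gives no direction for that list. The difference was -0.40 for Ncl, -0.47 for Utp20 and -0.41 for Psmd1. Gzmb had -0.93, Pdcd1 -0.98, Il2ra -0.47 and Spry1 -0.48, but activation genes went both ways. Of 19 tested effector genes 5 were called, 3 higher (Tnf, Ltb and Csf2) and 2 lower beside shFto-1. Of 26 tested early response factors 4 were called, 3 higher, Egr3 by 0.95, and 1 lower. Nos2, the inducible nitric oxide synthase, had -1.56, with 8.51 and 10.9 CPM beside shFto-1 cells and 25.9 and 30.6 CPM beside shFto-2 cells. Crabp2 and Chst2 had -0.86 and -0.78.

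Of 22 tested naive and memory genes 5 were called, all higher beside shFto-1 than beside shFto-2 cells. The difference was 0.99 for Il7r, 0.79 for Tcf7 and 0.83 for Lef1. Ifnar1 had 0.65, Gbp9 0.79 and Gbp4 0.73. Of 34 tested interferon-stimulated genes 15 were called, 10 higher and 5 lower beside shFto-1 (Mx1 by -1.55, Rsad2 by -1.30, and Ifit1, Ifit2 and Ifit3). Pdk1 had 0.45.

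Hist1h3e had 1.42, and its level of 81.6 CPM in the first shFto-1 library stood above 40.7 CPM in the second. Surf1, Crbn and Sla2 had no reads in the shFto-2 libraries, so their fitted values of 7.48, 9.16 and 9.13 depend on the prior count and give no size.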

How the results depend on the processing

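The counts of 25 MYC targets and 12 effector genes called higher were the same under every scaling and in every fit without 1 library. No gene called both as reported and under an alternative changed sign. Of 115 named genes, 0 reversed, 15 lost their call without the first shFto-1 library, and 3 to 10 in the other fits without 1 library. Without 1 library, 1472 to 2246 genes were called (1092 to 1679 higher, 380 to 639 lower, 416 to 669 at least 2-fold), and 1431 of the 2853 were kept without the first shFto-1 library. Library totals gave 1293 higher and 1536 lower, DESeq2 1346 lower, and tumour RNA subtraction 763 genes at least 2-fold. Subtraction left Pmel, Tyrp1, Tyr and Met with 0 counts and no value. Against shFto-2, relative log expression gave 147 genes, DESeq2 1061, no filter 838, and fits without 1 library 0 to 354.

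Deviations of same-numbered libraries correlated with r = -0.324 (shFto-1 with shNC), 0.368 (shFto-1 with shFto-2) and -0.206 (shFto-2 with shNC). With differing signs and no label for a shared batch, numbers were not taken as pairs. A replicate block gave 2903 genes and, against shFto-2, 446. Crossing the shNC numbers, an alternative chosen after seeing the data like the subtraction, gave 3081.

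With 4 markers the melanoma share was 6.72% and 8.81% in the shNC libraries. Promoter motifs were not compared between called sets, since under 80% of genes called lower (77.9%) have a window. The shallowest library, with 2628158 counts, limits low genes most.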

Other observations

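Further genes among the largest rises and falls were not described above. Mgarp, a mitochondrial protein, had 37.3 and 40.7 CPM beside shFto-1 cells, against 7.86 and 7.41 CPM beside shNC cells. Iqgap3, a scaffold protein, had 18.2 and 16.2 CPM beside shFto-1 cells, against 3.57 and 4.05 CPM beside shNC cells, and averaged 126 CPM in shFto and 110 CPM in shNC tumour libraries. Prkg2, a cyclic GMP-dependent kinase, had 8.10 and 10.9 CPM beside shFto-1 cells, against 34.3 and 43.6 CPM beside shNC cells, and its tumour level was 5.05 CPM in shFto and 33.4 CPM in shNC cells. Pik3r3, a regulatory subunit of PI3 kinase, and Tfdp2, a partner of E2F factors, fell by 1.71 and 1.63 on the log2 scale. Sulf2 and Cnr2 fell by 1.83 and 1.57. Both calls were lost without the first library of either group (edgeR, adjusted p up to 0.121), that of Cnr2 also without the second shFto-1 library, and that of Sulf2 with tumour RNA subtracted.

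Besides Pibf1 and Dnah17, Rmnd5b had 0 reads in both shFto-1 libraries and in both shFto-2 libraries, against 33 and 100 reads in the shNC libraries, at least 77.5-fold lower beside shFto-1 cells against a floor of 3 reads over the group, a bound on the deposited counts. Its tumour level was 32.9 CPM in shFto and 33.2 CPM in shNC cells. Rmnd5b was chosen after its values were seen.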
